A study of Mus musculus with 36 samples.

Results

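The toes and the long bones of the mouse midfoot were separated by a small part of their open chromatin. Of 65543 open chromatin regions found in the developing hand and foot, 927 (1.41%) were phalanx-only, meaning called in all 3 lists of foot phalanges and in none of the 3 lists of metatarsals. Another 660 (1.01%) were metatarsal-only, the reverse, and 27037 regions (41.3%) were called in all 6 hindlimb lists. Regions are the peaks of all 12 lists of the study merged wherever they shared at least 1 bp, and a region is called in a list when a peak of that list touches it. A region just outside the rule was called in all phalanx lists and in 1 metatarsal list (1431 regions), or in 2 phalanx lists and no metatarsal list (1704). For the metatarsals the 2 neighbouring counts were 2189 and 1696.

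The study measured open chromatin in E15.5 cartilage of FVB/NJ mice by ATAC-seq, which uses a transposase that inserts into DNA not wrapped in nucleosomes. The 18 hindlimb libraries came from foot phalanges and metatarsals of digits I, III and V, with 3 libraries for each element and digit, and 18 forelimb libraries from hand phalanges and metacarpals were built alike. All groups were FVB/NJ, and the labels name no other allele and no treatment. Each library pooled the left and right elements of 3 to 5 embryos of a single litter, and the phalanges of a digit (proximal and distal in digit I, with the intermediate one in digits III and V) went into the same pool. The lists analysed here hold the peaks of 3 pooled libraries each, so no list has a replicate error, and the spreads given below are between digits.

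The labels call the cells chondrocytes, although the tissue was microdissected and no cell sorting is described. All 8 chondrocyte markers, among them Sox9, Col2a1 and Acan, had a peak in the gene body or within 10 kb of it in all 6 hindlimb lists. Markers of other cell types were also open. By the same measure all 3 markers of endothelium and of osteoblast had a peak in all 6 lists. For tendon, muscle and blood 2 of 3 did, for nerve and hypertrophic cartilage 1 of 3, and for epidermis 0. The sums that follow instead count regions assigned to the closest gene end within 1 Mb. Over the 8 chondrocyte markers they were 72 to 111 in phalanx lists and 62 to 100 in metatarsal lists. Summed over 3 markers each, endothelium had 13 to 24 called regions in phalanx lists and 14 to 19 in metatarsal lists, blood 16 to 18 and 15 to 23, osteoblast 10 to 12 and 8 to 10, nerve 3 to 4 and 1 to 3, muscle 3 to 4 and 3 in each, tendon 5 in each and 3 to 7, and hypertrophic cartilage 1 to 2 and 2 to 3. The sum for epidermis was 1 in each phalanx list and 0 to 1 in metatarsal lists. These 3 epidermis markers are part of a list of 9 epidermal genes used below. In it Grhl3, Perp, Cdh1, Tfap2a and Tfap2c had called regions in all 6 lists by this count, and Krt15 had none. Most blood regions were those of Ptprc (12 to 14 and 12 to 18) and most endothelial regions those of Cdh5 (9 to 17 and 11 to 12). In the gene body and 10 kb flanks Ptprc had 1 and Cdh5 1 to 2 in the hindlimb lists. Mmp13, Tnmd, Krt5 and Krt14 had no peak in any of the 6 lists. In pooled tissue, fewer cells of a type and less open chromatin per cell cannot be told apart. The hindlimb lists held 36700 to 47375 peaks, and the read depth behind them is unknown. The longest were those of foot phalanges digit III (47375) and metatarsal digit I (46582).

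Metatarsals and phalanges form from the same cartilage rays of the limb bud. A ray is segmented at joint interzones, where Gdf5 and Wnt signals mark the future joint, and phalanges are added at the distal tip, where bone morphogenetic protein signalling through the receptor Bmpr1b commits cells to the digit ray. In both elements the cartilage anlage then grows by chondrocyte proliferation and hypertrophy, and human variants in BMPR1B or ROR2 shorten the digits. Enhancers, the switches that set where a gene is used, often lie far from it, and ATAC-seq peaks away from gene starts are candidates for such elements.

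Few of the separating regions lay at gene starts: 23 phalanx-only (2.48%) and 8 metatarsal-only regions (1.21%) overlapped the promoter of a protein-coding gene, against 17.1% of all regions. Phalanx-only regions overlapped the promoters of 24 protein-coding genes and metatarsal-only regions those of 8, with a promoter taken as 250 bases before to 50 bases after the start. In 13 and 4 of these genes the peak summits lay within 250 bp of the start in all 3 lists. The 5 promoters below are the ones among these that were called in at least 2 forelimb lists of the same element and in no list of the other element; this choice was made after the values were seen. They are shown as examples, not the full set, of places where a separating peak and a known gene start coincide. Sequences are from RefSeq (GRCm38.p6), 5′ to 3′ on the strand of the gene, and capitals mark matches, on either strand, to 4 of 8 motifs searched. The E-box was searched as CACGTG. The GC box was searched as GGGCGG, which may overlap itself. The other matches are to the letters CCAAT and to the RUNX motif, searched as TGTGGT.
Ablim1, chr19:57118975-57119274, minus strand: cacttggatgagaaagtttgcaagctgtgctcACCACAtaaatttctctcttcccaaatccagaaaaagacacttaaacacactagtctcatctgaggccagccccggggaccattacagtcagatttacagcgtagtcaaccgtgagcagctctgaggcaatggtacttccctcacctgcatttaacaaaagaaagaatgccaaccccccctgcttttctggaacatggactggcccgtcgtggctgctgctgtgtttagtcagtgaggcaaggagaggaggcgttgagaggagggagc
Diras1, chr10:81025328-81025627, minus strand: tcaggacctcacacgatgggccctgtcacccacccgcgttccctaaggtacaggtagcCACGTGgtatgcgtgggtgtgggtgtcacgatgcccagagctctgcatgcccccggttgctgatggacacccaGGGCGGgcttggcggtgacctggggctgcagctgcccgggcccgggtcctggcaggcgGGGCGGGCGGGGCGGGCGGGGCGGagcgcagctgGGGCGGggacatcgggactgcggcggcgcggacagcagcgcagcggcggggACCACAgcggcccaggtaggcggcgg
Mlxipl, chr5:135089640-135089939, plus strand: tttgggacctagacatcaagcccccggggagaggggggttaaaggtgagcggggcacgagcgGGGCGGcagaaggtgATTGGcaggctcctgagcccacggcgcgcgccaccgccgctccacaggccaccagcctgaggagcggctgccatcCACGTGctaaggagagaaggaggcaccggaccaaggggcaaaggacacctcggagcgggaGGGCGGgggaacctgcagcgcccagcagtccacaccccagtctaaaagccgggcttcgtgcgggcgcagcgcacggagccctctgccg
Nwd1, chr8:72646461-72646760, plus strand: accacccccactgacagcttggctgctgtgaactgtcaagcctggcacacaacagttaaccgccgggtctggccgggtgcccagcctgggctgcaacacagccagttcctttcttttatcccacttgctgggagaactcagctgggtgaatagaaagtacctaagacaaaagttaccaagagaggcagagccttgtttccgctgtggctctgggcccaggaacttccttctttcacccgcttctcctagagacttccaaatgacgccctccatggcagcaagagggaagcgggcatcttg
Has1, chr17:17855139-17855438, minus strand: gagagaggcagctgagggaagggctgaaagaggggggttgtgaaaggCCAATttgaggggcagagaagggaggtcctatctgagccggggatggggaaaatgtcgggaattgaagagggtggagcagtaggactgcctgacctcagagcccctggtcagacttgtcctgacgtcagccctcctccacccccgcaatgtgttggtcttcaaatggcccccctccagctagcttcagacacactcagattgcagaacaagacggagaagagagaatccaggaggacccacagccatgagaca

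Ablim1, which encodes an actin-binding LIM protein, had a phalanx-only region with its summits 169, 114 and 6 bp from the start in digits I, III and V, and the region was called in all 3 hand phalanx lists. Diras1, a small GTPase gene, had summits 70, 25 and 70 bp away and was also called in all 3 hand phalanx lists. Its promoter had 7 matches to the GC box, some of which overlap each other, and a GC content of 74.0%. Mlxipl, the carbohydrate-response transcription factor ChREBP, had summits 44, 37 and 39 bp from the start, and Nwd1 had them 199, 197 and 198 bp away. Both were called in 2 hand phalanx lists. Has1, a hyaluronan synthase, had the metatarsal-only region, with summits 123, 68 and 90 bp from the start and calls in 2 metacarpal lists.

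The E-box stood in Diras1 and Mlxipl, at positions -192 and -98 from the start, and in 7.84% of 21263 coding promoters. GC boxes stood in the same pair and in 46.2% of promoters, CCAAT in Mlxipl and Has1 and in 38.2%, and the RUNX letters in Ablim1 and Diras1 and in 15.0%. None of the 5 windows held TGACTCA, the AP-1 motif, which stood in 4.66% of promoters. The SOX letters ACAAAG, in 16.8% of promoters, were also in none. The same held for TATAAA, in 12.6%, and for the TEAD letters GGAATG, in 13.6%. The Nwd1 window held none of the 8 motifs. A phalanx-only region of 7639 bp (chr10:126994582-127002220) spanned part of Ctdsp2, the promoter window of Avil and the genes of miR-26a-2 and miR-546. The mature 5′ strand of miR-26a-2 from RefSeq is given with its seed in capitals.
mmu-miR-26a-5p: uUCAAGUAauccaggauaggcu
That region ranked low in the phalanx lists, at the 3.8, 25.6 and 0.4 percentiles, and was called in 1 hand phalanx list.

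The separating regions were also placed relative to genes. A gene end was within 1 kb for 29 phalanx-only regions (3.13%) and 14 metatarsal-only regions (2.12%), against 16.4% of all regions. Phalanx-only regions fell inside a gene in 421 cases and between genes in 477 (51.5%), and metatarsal-only regions in 250 and 396 cases (60.0%), where 40.9% of all regions lay between genes. The median distance to the nearest gene end, measured also for regions inside genes, was 40.9 kb for phalanx-only and 47.6 kb for metatarsal-only regions, against 20.6 kb. Over 100 kb away were 29.1% and 28.4%, against 18.5% of all regions. Phalanx-only regions also lay near each other: 111 of them (11.97%) had another within 50 kb, where 5.69% of all regions had a phalanx-only region that near. Among metatarsal-only regions 39 (5.91%) had another within 50 kb, against 3.76% of all regions. A metatarsal peak lay within 1 kb of 60 phalanx-only regions, and a phalanx peak within 1 kb of 32 metatarsal-only regions.

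The separating peaks were of low to middle rank. Ranked by the authors' −log10 p-value within each list, the median percentile was 21.6 for phalanx-only and 22.2 for metatarsal-only regions, where 50 is the middle of a list and 100 its most significant peak. None of the 927 phalanx-only regions exceeded 59.3 and none of the 660 metatarsal-only regions exceeded 58.0 in the median of the 3 lists that called them, and 13 of each class lay above 50. Among the more significant 50% of peaks of each list, 290 phalanx-only and 191 metatarsal-only regions were found. Absence from a list can also mean a weak peak under the threshold, so an uncalled region is not known to be closed.

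**Figure D1:**
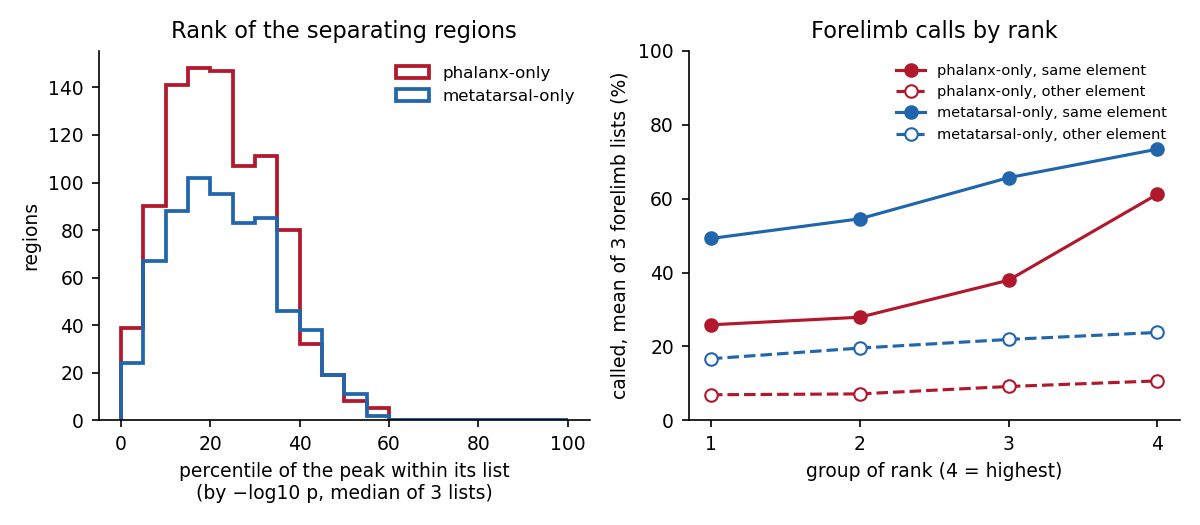
Rank of separating regions and their calls in the forelimb. Left, number of regions (y axis) by the percentile of the peak within its list, taken as the median of the 3 lists that call it (x axis, bins of 5). Right, the percent of regions called in the forelimb (mean of 3 lists) by rank in 4 groups of similar size, for lists of the same element (filled points) and of the other element (open points). Both distributions end below 60, and the same-element percent is lowest in group 1 and highest in group 4.

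Which regions separated the elements depended on list length and on single lists. With every list limited to its 36194 most significant peaks there were 896 phalanx-only and 885 metatarsal-only regions, so the larger number of phalanx-only regions did not hold at equal length. Of the 927 phalanx-only regions 328 (35.4%) met a region of that class at equal length, as did 278 of the 660 metatarsal-only regions (42.1%). Leaving out any list loosens the rule and can only raise the counts. Phalanx-only regions numbered 2074 without metatarsal digit I, 1609 without foot phalanges digit I and 1538 without foot phalanges digit III. Metatarsal-only regions numbered 2723 without foot phalanges digit III and 1857 without metatarsal digit V. The list of foot phalanges digit III was closer to that of metatarsal digit I (Jaccard index 0.765, shared regions over regions in either) than to the phalanges of digit I (0.709) or V (0.729). Over all pairs the mean index was 0.745 within an element and 0.693 between elements, a difference of 0.052. Its one-sided exact permutation p over the 10 splits of the 6 lists was 0.1, the smallest they allow.

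The forelimb gave 6 lists whose calls the rule did not use, although their peaks were among those merged into regions. Phalanx-only regions of the foot were called in 373, 374 and 309 cases in hand phalanges of digits I, III and V, which is 40.2%, 40.3% and 33.3% of the 927. In metacarpals of the same digits they were called in 49, 139 and 47 cases (5.29%, 15.0% and 5.07%). All 3 hand phalanx values lay above all 3 metacarpal values, with means of 38.0% ± 4.02 and 8.45% ± 5.67 (SD, n = 3 lists each). The difference was 29.5 percentage points, with a two-sided exact permutation p of 0.1, the smallest that 3 lists against 3 allow, so no such comparison here could pass 0.05.

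Metatarsal-only regions went the other way. They were called in 258, 582 and 361 cases in metacarpals of digits I, III and V (39.1%, 88.2% and 54.7% of the 660) and in 123, 224 and 58 cases in hand phalanges (18.6%, 33.9% and 8.79%). Again the groups did not overlap, at 60.7% ± 25.1 and 20.5% ± 12.7 (SD, n = 3 lists each). The difference, hand phalanges minus metacarpals, was -40.2 points (two-sided exact permutation p = 0.1). The metacarpal digit III list, the longest of all with 53276 peaks, was the highest value, and without it the difference was -26.4 points. Over all 65543 regions the means were 57.3% in hand phalanges and 61.0% in metacarpals. At equal list length the phalanx-only regions were called at 53.9%, 41.3% and 51.1% in hand phalanges and 16.0%, 7.03% and 9.15% in metacarpals. The metatarsal-only regions were then called at 31.5%, 36.7% and 23.6% and at 63.6%, 80.1% and 71.2%, and the groups still did not overlap.

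**Figure D2:**
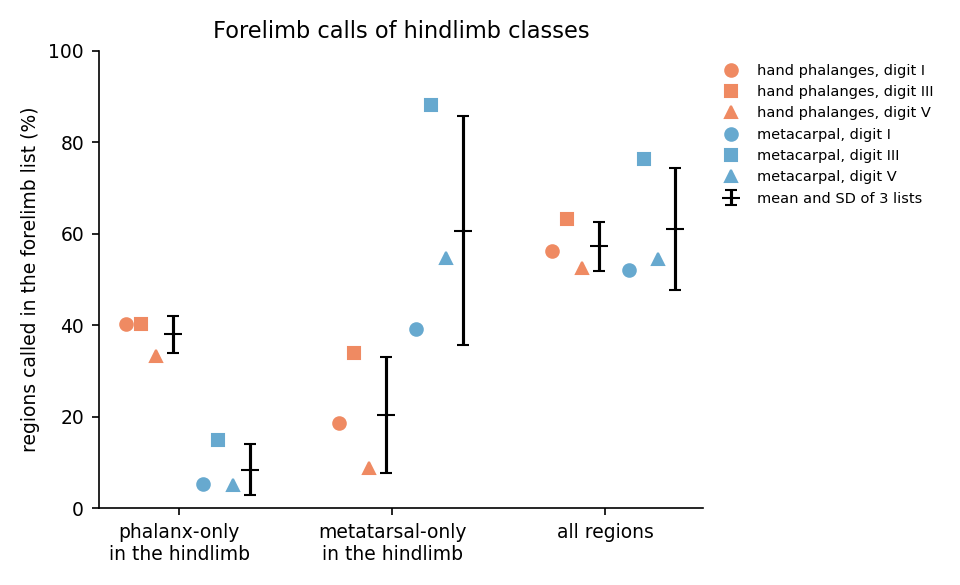
Percent of hindlimb-defined regions called in each forelimb list (y axis), for the 927 phalanx-only, the 660 metatarsal-only and all 65543 regions. Points are lists by digit, and black bars give the mean and SD of 3 lists. Hand phalanges lie above metacarpals for phalanx-only regions and below them for metatarsal-only regions, while the lists overlap over all regions.

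Within each digit the direction was the same, although 3 digits matched in pairs allow no two-sided exact sign-flip p under 0.25. In digit I, 333 phalanx-only regions were called in the hand phalanges and not in the metacarpal and 9 the reverse, in digit III 264 and 29, and in digit V 276 and 14. For metatarsal-only regions the numbers were 32 and 167 in digit I, 4 and 362 in digit III, and 14 and 317 in digit V. Over all regions they were 6731 and 4110 in digit I, 3943 and 12667 in digit III, and 5821 and 7060 in digit V. The strict pattern, all 3 hand phalanx and no metacarpal lists, held for 78 phalanx-only regions (8.41%), against 0.796% of all regions. Its reverse held for 0 of 927, which allows a share of up to 0.324%. Of the metatarsal-only regions 60 (9.09%) were called in all 3 metacarpal and no hand phalanx lists, against 0.92% of all regions, and the reverse held for 0 of 660 (up to 0.455%). Both zero limits cover counting error alone. No forelimb list called 323 phalanx-only regions (34.8%) or 63 metatarsal-only regions (9.55%), beside 11.4% of all regions. With members in 4 groups of similar size by rank, the mean call in lists of the same element went from 25.8% in the lowest to 61.2% in the highest for phalanx-only and from 49.2% to 73.4% for metatarsal-only regions. In lists of the other element it went from 6.92% to 10.7% and from 16.7% to 23.8%.

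The 6 highest-ranked phalanx-only regions were assigned to Arsj, Dapl1, Gldc, Lmf1, Fam107b and Stk32c. The Arsj region (chr3:126438241-126440507), 1.0 kb from an end of this arylsulfatase gene, stood at the 54.6, 64.7 and 59.3 percentiles and was called in all 3 hand phalanx lists and in metacarpal digit III. The region of Gldc, the glycine decarboxylase of the glycine cleavage system, lay 1.97 kb from the gene (chr19:30094794-30098144) at percentiles 47.0, 62.0 and 57.0. All 6 were called in every hand phalanx list, and the 5 other than that of Arsj were called in no metacarpal list. The 6 highest metatarsal-only regions were assigned to Ccdc54, Ube2d1, Col3a1, Prex2, Gabrg3 and Dglucy. The one nearest to Col3a1, which encodes type III collagen of fibrous connective tissue, lay 255 kb away (chr1:45054945-45057279). Of these regions 5 were called in all 3 metacarpal lists and that of Ccdc54 in 2, but the Dglucy region was also called in all 3 hand phalanx lists.

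Genes were compared by the number of called regions assigned to them, with each region given to the closest protein-coding gene, measured to its ends, within 1 Mb. Phalanx-only regions were assigned to 801 genes and metatarsal-only regions to 608, with 88 genes in both sets. In 290 of 16341 genes (1.77%) every phalanx list held more regions than every metatarsal list, and in 202 (1.24%) fewer. Of 207 listed genes of limb patterning, cartilage and other cell types with a region, 11 (5.31%) had more and 6 (2.899%) fewer. Listed genes hold more regions than others (median 6 against 2), which leaves more room for a difference. Among genes with at least 5 regions the background was 3.45% and 2.65%, and 11 (9.32%) and 3 (2.54%) of 118 listed genes were higher and lower. Without metatarsal digit I the listed genes with more regions numbered 39, and without foot phalanges digit I 26. Those with fewer numbered 25 without foot phalanges digit III and 11 without metatarsal digit V.

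**Figure D3:**
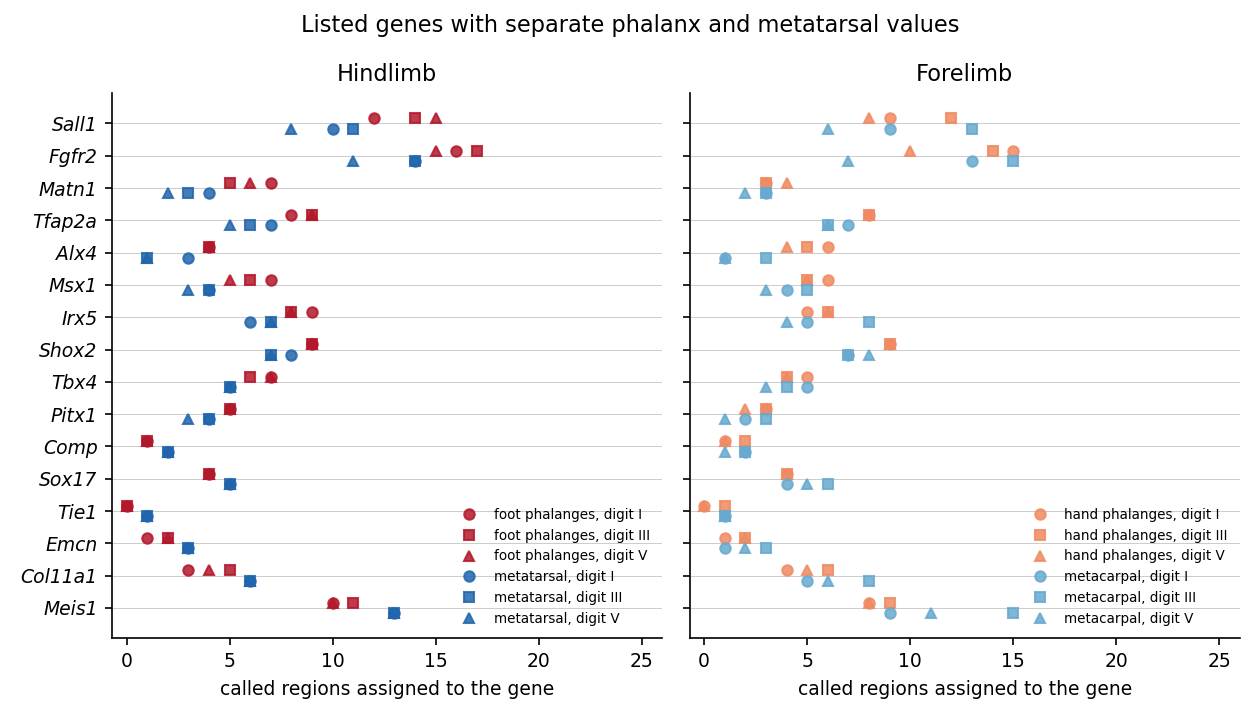
Called regions (x axis) assigned to each of 16 listed genes whose hindlimb values do not overlap, with 1 point per list. The left panel shows the hindlimb, which selected the genes, and the right panel the forelimb, where Alx4, Shox2 and Tfap2a also had separate groups.

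Transcription factors of the distal limb and of limb identity held most of these genes. Sall1, a zinc-finger factor of the distal limb, had 12, 14 and 15 regions in foot phalanges I, III and V and 10, 11 and 8 in metatarsals. All phalanx values were above all metatarsal values, but among the more significant 50% of peaks the mean difference turned from 4.0 to -0.33. The 3 phalanx-only regions of Sall1 lay 425 to 508 kb from the gene, between genes (chr8:89467880-89469489, chr8:89522984-89524138 and chr8:89551065-89552304), and the first was called in 1 hand phalanx list. Msx1, a homeobox gene of the digit tip and nail bed, had 7, 6 and 5 regions in phalanges and 4, 4 and 3 in metatarsals. Of its phalanx-only regions, 1 at 33.4 kb (chr5:37857006-37859038) was called in all 3 hand phalanx lists and no metacarpal list, at percentiles 31.6, 49.3 and 42.8.

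Pitx1, which encodes a homeobox factor of hindlimb identity, had 5 regions in each phalanx list and 4, 4 and 3 in metatarsals. Its phalanx-only region (chr13:55856393-55861407) lay 22.7 kb from the gene and was called in 2 hand phalanx lists. Tbx5, the T-box gene of the forelimb, had a phalanx-only region 6.72 kb away (chr5:119891136-119892740) that was called in 1 hand phalanx list, with totals of 7, 7 and 9 in foot phalanges and 7, 3 and 3 in metatarsals that overlapped. Tbx4, the T-box gene of the hindlimb, had 7, 6 and 7 regions in phalanges and 5 in each metatarsal list. Alx4, an anterior patterning homeobox gene, had 4 in each phalanx list and 3, 1 and 1 in metatarsals, and in the forelimb 6, 5 and 4 against 1, 3 and 1. Shox2, needed for proximal limb bones, had 9 in each phalanx list and 8, 7 and 7 in metatarsals, and in the forelimb 9 in each hand phalanx list and 7, 7 and 8 in metacarpals. Irx5, an Iroquois homeobox gene, had 9, 8 and 8 against 6, 7 and 7, and its forelimb groups overlapped. Hoxa13, required for the autopod, had 1, 2 and 2 regions in phalanges and 1 in each metatarsal list. Within the gene body and 10 kb flanks, Hoxd13, Hoxa13, Msx1 and Alx4 had the same number in all 6 hindlimb lists (1, 2, 1 and 1), so the differences of Msx1 and Alx4 lay farther out. By that count Tbx4 had 4, 4 and 5 in phalanges and 4 in each metatarsal list. Pitx1 had 4 in each phalanx list and 4, 4 and 3 in metatarsals, so the groups of both genes overlapped.

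Meis1 and Meis2 encode homeobox factors of the proximal limb. Meis1 was on the other side, with 10, 11 and 10 regions in phalanges and 13 in each metatarsal list. It had 1 region of each class, and its metatarsal-only region (chr11:18712287-18715179), 167 kb from the gene, was among those of higher rank, at percentiles 52.2, 42.1 and 43.9, with calls in all 3 metacarpal and no hand phalanx lists. Meis2 had 2 phalanx-only regions inside the gene, of which 1 (chr2:115896893-115899988) was called in all 3 hand phalanx lists and in 1 metacarpal list.

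Genes whose human variants shorten the digits carried 6 phalanx-only regions and 1 metatarsal-only region among 180 (3.33% and 0.556%, against 1.41% and 1.01% of all regions). Bmpr1b had 3 of the 6, all inside the gene and 30.9 to 155 kb from its nearest end (chr3:142137751-142139621, chr3:142013444-142015024 and chr3:141922982-141924486). They were of low rank, at 1.4 to 43.1 percentiles over the lists. In the forelimb, 2 of them were called in 1 hand phalanx list each, and 1 of these also in 1 metacarpal list. Ror2, the Wnt5a receptor, had 2 phalanx-only regions inside the gene, called in no forelimb list, and Hdac4, a histone deacetylase of chondrocyte maturation, had 1 that was called in 2 hand phalanx lists. The metatarsal-only region belonged to Pde4d, a cyclic AMP phosphodiesterase, and was called in all 3 metacarpal and 2 hand phalanx lists. Without foot phalanges digit III Pde4d had 7 metatarsal-only regions, and without metatarsal digit V it had 4, so the numbers of the list rest on single lists. Ror2 had 4 phalanx-only regions without foot phalanges digit I, while Bmpr1b had 3 whichever hindlimb list was left out. None of the 15 genes of the list with a region had groups that did not overlap.

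**Figure D4:**
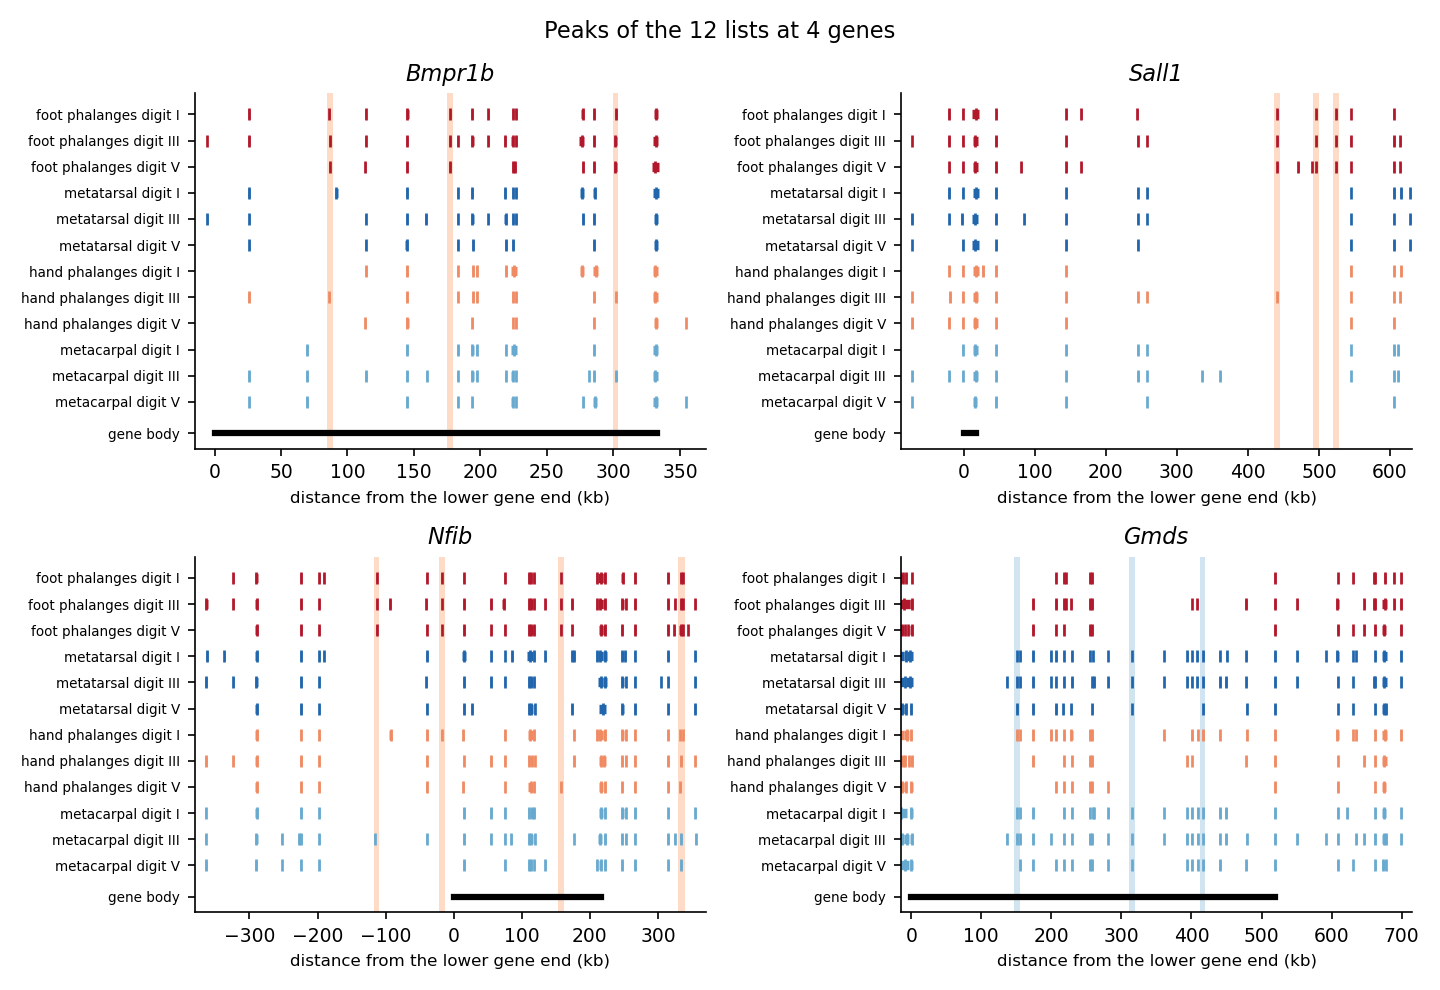
Peaks of the 12 lists (ticks, 1 row per list) at Bmpr1b, Sall1, Nfib and Gmds against the distance from the lower end of the gene in kb; black bars are gene bodies, red shading phalanx-only and blue shading metatarsal-only regions, with shading widened for visibility. Bmpr1b and Sall1 show 3 phalanx-only regions each, Nfib 5 (a pair of them adjacent) and Gmds 3 metatarsal-only regions inside the gene.

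Cartilage regulators and matrix genes were split between the elements. Sox9, the factor that specifies chondrocytes, had a phalanx-only region 228 kb away (chr11:113013201-113018323) at percentiles 30.9, 35.2 and 43.8, called in 2 hand phalanx and no metacarpal lists. Its partners Sox5 and Sox6 had 1 phalanx-only region each, and that of Sox6 (chr7:115257670-115259741) was called in all 3 hand phalanx lists and in 1 metacarpal list. Matn1, a cartilage matrix protein, had 7, 5 and 6 regions in phalanges and 4, 3 and 2 in metatarsals. Col11a1, a fibrillar cartilage collagen, had 3, 5 and 4 regions in phalanges and 6 in each metatarsal list, and Comp, an extracellular matrix protein of cartilage and tendon, 1 in each and 2 in each. The Comp region that made the difference (chr8:70365626-70367537) lay 6.97 kb from the gene and was called in 2 metacarpal lists and 1 hand phalanx list. Sox9 as a whole had 14, 16 and 18 regions in phalanges and 20, 13 and 6 in metatarsals, which overlap. Col2a1, the main cartilage collagen, had 1, 2 and 1 against 2, 3 and 2, and Acan, the cartilage proteoglycan, 5, 6 and 4 against 6, 7 and 5. Col10a1, the collagen of hypertrophic chondrocytes, had 0, 1 and 1 in phalanges and 2, 2 and 1 in metatarsals, again with overlap. The list of resting and proliferating cartilage held 4 phalanx-only regions and 1 metatarsal-only region among 204 (1.96% and 0.49%, against 1.41% and 1.01% of all regions), and Sox9 alone had 5 phalanx-only regions without metatarsal digit I. The hypertrophic list held 112 regions and none of either class, which in a list of that size is near the shares of all regions. All its 14 genes with a region had overlapping values.

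The growth plate signalling list held 2 regions of each class among 189 (1.06% each), near the share of all regions. Fgfr2, a receptor for fibroblast growth factors, had 16, 17 and 15 regions in phalanges and 14, 14 and 11 in metatarsals. Fgf9 and Igf1 had a phalanx-only region each, and Fgf18 and Bmp6 a metatarsal-only one. The Fgf18 region (chr11:32998710-33000661), 117 kb from this growth plate ligand gene, was called in all 3 metacarpal and no hand phalanx lists. Bmp2, which stood in the anterior-posterior patterning list, had a metatarsal-only region 42.9 kb away (chr2:133508081-133510452). That region was at percentiles 39.7, 49.1 and 46.2 and was called in all 3 metacarpal lists and 1 hand phalanx list. Bmp4, of the distal digit list, had 1 metatarsal-only region that was called in 2 metacarpal lists.

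The anterior-posterior patterning list held 4 regions of each class among 335 (1.19% each), again near the share of all regions, and some of its genes had 1 of each. Jag1, a Notch ligand, had a metatarsal-only region 88.4 kb away (chr2:137204023-137205734) at percentiles 39.7, 66.8 and 39.8, called in all 3 metacarpal and no hand phalanx lists, and a phalanx-only region 127 kb away called in 1 hand phalanx list. Gli3, the transcription factor that carries the hedgehog signal, and Gas1, a hedgehog co-receptor, also had 1 of each. The metatarsal-only regions of both were called in all 3 metacarpal lists and 1 hand phalanx list. The phalanx-only region of Gas1 was called in no forelimb list, and that of Gli3 in 2 metacarpal lists and no hand phalanx list. Gli2, a relative of Gli3, had 1 phalanx-only region, called in 1 hand phalanx list.

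In the joint list 3 regions were phalanx-only and 2 metatarsal-only among 238 (1.26% and 0.84%), near the 1.41% and 1.01% of all regions. Gdf5, the growth factor of the joint interzone, had 2 called regions in each phalanx list and 2, 1 and 2 in metatarsals. Nfatc1, a calcineurin-dependent transcription factor, had a phalanx-only region inside the gene that was called in all 3 hand phalanx and no metacarpal lists. Tgfbr2, a receptor for transforming growth factor beta, had a phalanx-only region 35.0 kb away (chr9:116209625-116211100) that was called in all 3 hand phalanx and no metacarpal lists. Sfrp2, a secreted Wnt inhibitor, had 1 called in no forelimb list. Trps1, a zinc-finger repressor, had both metatarsal-only regions, of which 1 was called in all 3 metacarpal and 2 hand phalanx lists, and it had 5 without foot phalanges digit III. Twist2, a regulator of the osteoblast lineage from the perichondrium and osteoblast list, had 1 phalanx-only region, called in 1 hand phalanx list.

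Some genes of other cell types also had separate values, and their part in the other results was not tested. No gene of the tendon, muscle, nerve or blood lists did. Tfap2a, an epidermal and neural crest factor, had 8, 9 and 9 regions in phalanges and 7, 6 and 5 in metatarsals, and in the forelimb 8 in each hand phalanx list and 7, 6 and 6 in metacarpals. Of 12 endothelial genes, Emcn, Sox17 and Tie1 were lower in phalanges, and the other 9 had overlapping values with means on either side. Tie1 was 0 in each phalanx list and 1 in each metatarsal list, Sox17 4 in each and 5 in each, and Emcn 1, 2 and 2 against 3 in each, which turned to a difference of 0.33 in favour of phalanges among the more significant 50% of peaks. Cdh5, the vascular cadherin, had 2 phalanx-only and 1 metatarsal-only region, Flt1 1 phalanx-only region, Runx1 2 phalanx-only and Ptprc 1 metatarsal-only region. The endothelial list held 3 regions of each class among 84 (3.57% each, against 1.41% and 1.01% of all regions). As a whole it did not separate the elements, with 13.1 ± 0.68 of 10000 called regions in phalanges and 13.3 ± 0.35 in metatarsals (SD, n = 3 lists each). The tendon, muscle and nerve lists held 63, 31 and 20 regions and none of either class, which in lists of that size is near the shares of all regions. Runx1 had 4 phalanx-only regions without metatarsal digit I, and Ptprc 3 metatarsal-only regions without metatarsal digit V.

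As shares of all called regions, 7 of 17 gene lists were above in all phalanx lists and 1 in all metatarsal lists (n = 3 lists each). Any such separation of 3 lists from 3 has a two-sided exact permutation p of 0.1, so the p-value adds nothing to it. The gene lists were chosen with earlier results of these data known. No background share over other sets of genes was taken for this count, and 11 genes stood in 2 lists. The list of distal digit genes took 22.8 ± 2.16 of 10000 called regions in phalanges and 18.8 ± 1.32 in metatarsals (SD), the non-Hox regulators of the proximal and distal limb 18.5 ± 0.63 and 16.6 ± 0.42, and the limb identity genes 9.57 ± 1.20 and 7.37 ± 0.85. The lists of 5-prime Hox genes, brachydactyly genes, growth plate signalling and epidermis were the others above. The difference for the 5-prime Hox list, 1.43 ± 0.13 against 1.08 ± 0.11, rested on 7 regions in all. The tendon and ligament list was lower in phalanges, at 8.55 ± 0.26 against 9.37 ± 0.39. The joint list did not separate the elements, with 34.3 ± 0.46 and 34.0 ± 1.32 (exact permutation p = 0.7). Of the lists that separated the hindlimb elements, only the distal digit list also did so in the forelimb. It took 20.3 to 22.0 in hand phalanges and 15.1 to 18.4 in metacarpals. The others overlapped there, with limb identity genes at 6.04 to 8.42 and 5.59 to 7.31.

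**Figure D5:**
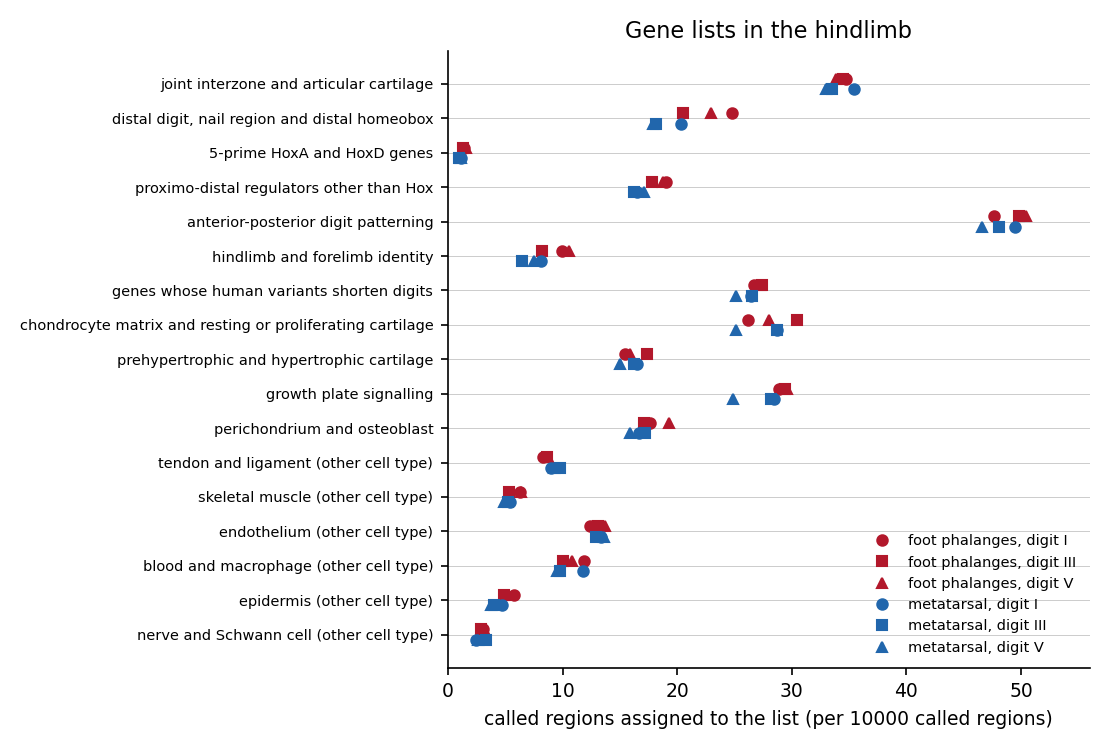
Called regions assigned to each of 17 gene lists per 10000 called regions of a list (x axis), for the 3 foot phalanx lists (red) and the 3 metatarsal lists (blue), with symbols by digit. The distal digit, proximo-distal and limb identity lists show the phalanx points to the right of the metatarsal points, and the joint, endothelial and nerve lists show them mixed.

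Outside the lists, Nfib had the most phalanx-only regions. This nuclear factor I gene, a transcription factor of lung, brain and hair follicle development, had 5, of which 1 lay inside the gene and 4 lay 17.6 to 119 kb outside it. One of them (chr4:82621605-82625070) stood at percentiles 32.4, 55.0 and 36.9 and was called in all 3 hand phalanx and 2 metacarpal lists. Its total of called regions was 19, 26 and 20 in phalanges and 22, 17 and 13 in metatarsals, and the groups overlapped. Uaca had 4, at 45.6 to 204 kb, beside 1 metatarsal-only region, and its totals of 10, 11 and 11 in phalanges were above the 7, 5 and 6 in metatarsals. Auts2, a regulator of neuronal development, Slit3, an axon guidance ligand, and Sipa1l2 also had 4 each. Cxcl12, a chemokine that guides blood cell precursors and vessels, 1700018B08Rik and Atp5g3 had 3 each, and 1700018B08Rik had 6 without metatarsal digit I. The 4 phalanx-only regions of Auts2 were called in no forelimb list, while 1 of Slit3 (chr11:35731516-35732552) was called in all 3 hand phalanx and 2 metacarpal lists.

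Among metatarsal-only regions Gmds, Cd47 and Flrt2 led with 3 each. Gmds, an enzyme of fucose synthesis, held all of its 3 inside the gene, and 2 of them (chr13:32134175-32135697 and chr13:32233945-32237010) were called in all 3 metacarpal lists. It had 28, 28 and 14 called regions in metatarsals and 13, 19 and 12 in phalanges, so the groups overlapped. Cd47, the receptor that signals to macrophages not to engulf a cell, had 3 regions within 52.7 to 84.6 kb, called in 2, 2 and 3 metacarpal lists. Flrt2, a membrane protein of cell guidance, had 3 regions 210 to 906 kb away, and its totals were 10, 14 and 9 in metatarsals and 5, 7 and 5 in phalanges. Adgrf5, an adhesion receptor of endothelium and lung, had 2 regions, 1 of them at a gene end, with 3 called regions in each metatarsal list and 1 in each phalanx list. The genes 1600014C23Rik, Arhgap26, Atp2b1 and Azin1 had 2 each. This order rested on single lists: without metatarsal digit V Gmds had 10, and without foot phalanges digit III Gmds had 5, Cd47 6 and Atp2b1 6, while Flrt2 had at most 4 with any hindlimb list left out.

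The genes with separate hindlimb values were also counted in the forelimb. Of the 290 genes with more regions in every foot phalanx list, 29 (10.0%) also had more in every hand phalanx list and 0 had fewer, where 0.906% and 1.3% of all 16341 genes did. Of the 202 genes with fewer regions, 20 (9.90%) had fewer and 0 had more. Genes with more regions separate more often: in the hindlimb 1.77% of all genes were higher, and 3.45% of those with at least 5 regions. No forelimb share matched for the number of regions was taken, so these contrasts with all genes are unmatched. By means, 209 of the 290 were higher in hand phalanges than in metacarpals, 27 lower and 54 equal. Of the 202 genes 177 were lower, 8 higher and 17 equal. No counts by means over all genes were taken, so these have no background share beside them. Among the listed genes, Alx4, Shox2 and Tfap2a had more regions in all hand phalanx lists, and none of the 6 listed genes with fewer regions was separate in the forelimb.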

How the data were processed

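ATAC-seq peak lists of 12 groups on mm10, each called on pooled libraries according to its peak names (3 libraries per group, per the labels), were analysed. Bowtie2 2.3.4.1, Picard 2.9.0 and MACS3 were used, per the submitters' processing notes. Trimming, filtering and the shift of cut sites are not given in the sources used here. For each peak the authors deposited a linear fold enrichment, a −log10 p-value, a score and a summit offset. Of these, the −log10 p-value served to rank peaks within a list and the summit to place peaks at promoters. File names state a selection by irreproducible discovery rate. Depth per library is unknown, and p-values measure the spread between lists of different digits, not between animals.

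Lists were merged at 1 bp in Python 3.11.15 with pandas 2.3.3 and numpy 2.4.6, and the steps were tested on simulated data. RefSeq positions (GRCm38.p6, the same coordinates as mm10) gave gene ends. Strand was missing for part of the genes, so nearest gene ends replaced the planned start sites. Tests are exact permutations over 3 lists against 3. No genome sequence was used here, so the planned sequences round summits were replaced by RefSeq promoters. The members and the 17 gene lists were chosen with earlier results of these data known. Named genes were, per class, up to 4 per gene list and 8 outside the lists with the most regions, the 6 highest-ranked regions, and up to 6 listed genes per direction with the largest separate differences, with 9 landmark genes; 4 other listed genes with more regions were named after their values were seen, as were the promoters and the microRNA. Alternatives are given in the closing section, and leaving out forelimb lists was added after seeing the data. Some listed genes are counted but not reported here by name.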

Additional observations from a re-analysis of the deposited data

How the results depend on the processing

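Under the more significant 50% of each list, phalanx-only regions numbered 290, metatarsal-only regions 191, listed genes with more regions in phalanges 6 and with fewer 3, and the mean difference turned to 0.33 for Emcn and -0.33 for Sall1. As stretches of at least 200 bp covered by the peaks, without merging into regions, the classes held 1944 and 1782, of which 1015 and 1122 lay inside other regions. With the gene body and 10 kb flanks, 5 listed genes had more and 3 fewer regions, and 3 had fewer when a peak had to cover 50% of a region. Leaving out 1 hindlimb list gave 1003 to 2074 phalanx-only regions, 716 to 2723 metatarsal-only regions, and 11 to 39 and 6 to 25 listed genes. The forelimb differences ranged from 22.7 to 38.1 points and from -51.0 to -26.4 points over all alternatives run and kept their direction, but no alternative could pass 0.05. No paired analysis was possible because pooling removed the replicate numbers that would pair libraries. Lists matched by digit instead, an alternative chosen after seeing the data, gave the same mean differences of 29.5 and -40.2 points, each with an exact sign-flip p of 0.25, the smallest that 3 pairs allow. Of the numbers of separating regions per named gene with 1 hindlimb list left out, 48 moved by over 1.5 times and 324 did not. Under the other alternatives 131 of these numbers moved that far or fell to 0, and 241 did not. For the mean differences of named genes with separate values, those alternatives changed the sign of 2. Another 26 moved by more than the larger SD of the 2 groups, and 56 did not. With 1 hindlimb list left out, all 72 such differences stayed within that SD. The lists end at different significances (lowest −log10 p-value 28.6 to 41.5 in the hindlimb), and whether missing calls at low rank follow from depth was not tested.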
